A study of Mus musculus with 12 samples.

Results

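Mouse microRNA genes numbered Mir6900 to Mir7099 are short hairpin precursors that lie inside other genes, most of them described as mirtrons. They were taken as all transcript clusters of the array with a single platform symbol of Mir and a plain number in that range, 1 cluster per symbol. This gave 157 precursors among 65956 transcript clusters. Another 37 clusters in the range also carried a second gene and 2 carried a letter or copy suffix, and these were not counted.

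The measurements came from 12 mouse Clariom D arrays, 1 per mouse, on which total RNA of bone marrow monocytes and macrophages purified by magnetic separation was read as log2 intensity. All mice were Rag2-/-gamma c-/- on BALB/c background, a strain without T, B and natural killer cells that accepts human grafts. MEC1 cells, a single human B cell line established from chronic lymphocytic leukemia, had been given by intravenous injection to 6 mice. Of these, 3 were killed after 21 d, at an early stage and an age of 11 weeks, and 3 after 31 d, at a late stage and an age of 13 weeks. Each day had 3 age-matched mice of the same strain without MEC1 as controls. The comparison addressed which of these precursors changed in the marrow monocyte and macrophage fraction as the leukemia advanced.

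A canonical microRNA hairpin is cut from its primary transcript by Drosha with Dgcr8, exported by Xpo5, cut again by Dicer1 and loaded on an Argonaute protein. A mirtron skips the Drosha step: splicing of a short intron releases a lariat, the debranching enzyme Dbr1 opens it, and the freed intron folds into a hairpin that Dicer1 can cut. The ends of such a hairpin are therefore the ends of the intron, with the splice acceptor AG at the 3′ end of the 3p arm. A cluster named for a precursor reads any RNA that holds its sequence, so the intact intron of an unspliced host transcript, the hairpin and the mature arms cannot be told apart. RNA had been extracted with QIAGEN RNeasy mini columns, which retain small RNAs poorly in their standard protocol.

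The sequences of the precursors that changed most, given here from RefSeq (GRCm38.p6), follow. In the mature arms the capitals mark the seed, bases 2 to 8, which chooses the targets. Mir6995, Mir6965, Mir6946 and Mir6987 had the largest rises in MEC1 mice at 31 d:
miR-6995-5p: cUGGGAGUagaagggggaaacca
miR-6995-3p: uGUGUCCCcuuccucucacag
miR-6965-5p: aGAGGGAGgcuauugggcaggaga
miR-6965-3p: uCUGUGCUcggucucgcuccag
miR-6946-5p: aAAAGGGAgagaaagaaaugc
miR-6946-3p: uUUCUUCUcuucccuuucag
miR-6987-5p: uGGGACAGggugacagggugag
miR-6987-3p: cACCCAUUucucccugcuuccag
Mir7067 and Mir7068 had the largest falls:
miR-7067-5p: uGCAGGGGgugguugcacacgga
miR-7067-3p: uGAUUGCUucccuccccacag
miR-7068-5p: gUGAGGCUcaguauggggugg
miR-7068-3p: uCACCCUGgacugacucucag
Mir6916 and Mir7058 rose at 21 d:
miR-6916-5p: cAGGAGGAuggagaugaguca
miR-7058-5p: uAGAGGGGaggugaccguggaagu
miR-7058-3p: cUCGUUCCuuccuuucuuccag

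Whole hairpins are shown for the strongest rise, for Mir6987, which rose on both days, and for Mir7068, which fell on both days, with the mature arms in capitals. Mir6995 lies at chr19:47273519-47273589 on the minus strand, inside Sh3pxd2a, which encodes a podosome scaffold protein. The strand of Sh3pxd2a was not compared. Mir6987 lies at chr19:5679004-5679076, minus strand, inside Pcnx3. Mir7068 lies at chr8:72470016-72470089, minus strand, inside Cherp. In each of these 3 hairpins the 3p arm ends with AG at the last base. The RefSeq entry of Mir7068 also begins with GU, the letters of a splice donor, while those of Mir6995 and Mir6987 begin with other bases.
Mir6995: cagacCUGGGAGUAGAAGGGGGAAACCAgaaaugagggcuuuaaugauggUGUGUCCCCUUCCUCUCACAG
Mir6987: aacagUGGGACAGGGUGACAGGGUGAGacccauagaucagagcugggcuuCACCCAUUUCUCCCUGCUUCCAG
Mir7068: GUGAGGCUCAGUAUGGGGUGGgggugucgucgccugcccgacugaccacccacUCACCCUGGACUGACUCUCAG

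RefSeq gave a hairpin for 140 of the 157 members and at least 1 mature sequence for 145. Neither was given for Mir6920, Mir6951, Mir6952, Mir6953, Mir6971, Mir6972, Mir6979, Mir6980, Mir6982, Mir6983, Mir7040 and Mir7064. The 3p arm ended with AG in 112 of 140 members (80.0%), against 86 of 591 other mouse 3p arms in the same table (14.6%). A run of GGG occurred in 105 of 138 5p arms of members (76.1%) and in 188 of 589 other 5p arms (31.9%), read on the given strand. Member hairpins were shorter, with a median of 65.5 bases (52 to 137) against 81, and richer in G and C, with a median of 57.1% against 50.6% for 865 other hairpins. The median 5p arm was 43.7% G, and the median 3p arm 71.4% C or U.

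The members formed few and small seed families. Their 278 mature sequences held 260 different seeds, and at most 3 members shared one. Only 16 seeds occurred in more than 1 member. Of the 260 seeds, 42 were also held by another mouse mature microRNA. All 157 members lay within the span of another gene. For 125 the gene was on the same strand, and for 32 the strand of that gene was not in the tables used here. Whether each lies in an intron or an exon was not analysed here.

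On these arrays the members were dim to moderate. Mean log2 intensities over the 12 arrays ran from 2.11 to 10.75 with a median of 5.14. Tests covered clusters that exceeded the median of their array on 3 or more arrays. That left 134 members, of which 106 lay above the median in all 12 arrays, and 23 members that were not tested. The median SD of a member among the 3 mice of a group was between 0.254 and 0.325 log2 units.

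Whole-array signal also shifted with MEC1, which bears on each value below. The array median of all clusters was 3.86 in controls and 4.06 with MEC1 at 21 d, and 3.81 and 4.24 at 31 d. The hybridisation controls, bacterial and phage sequences added in fixed amounts, read 10.81 and 11.92 at 21 d and 10.62 and 12.57 at 31 d. Of their variance 92.17% lay between the 4 groups, so that group and this shift cannot be told apart. Background features with 13 to 17 G or C bases were higher by 0.09 at 21 d and 0.16 at 31 d. Those with 6 to 9 were higher by 0.26 and 0.41, and those with 18 to 22 by 0.03 and 0.07. The array farthest from the rest was MEC1 31 d replicate 3, whose hybridisation controls read 13.18. Of the marker lists, the 8 monocyte and macrophage genes lay above the array median in all controls, and 6 of 8 fell at 31 d (median -1.51). All 6 erythroid genes with a cluster fell at 31 d (median -6.63), their mean level ranging from 11.50 to 12.02 in controls and from 4.98 to 5.80 with MEC1, and 4 of them had fallen at 21 d. At 31 d 3 of 6 neutrophil genes and 1 of 3 megakaryocyte genes fell, 3 of 4 tested B cell genes rose (median 0.85 over 5 genes), and the 1 tested T and NK cell gene did not pass. Their part in the changes of the precursors was not tested.

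**Figure D1:**
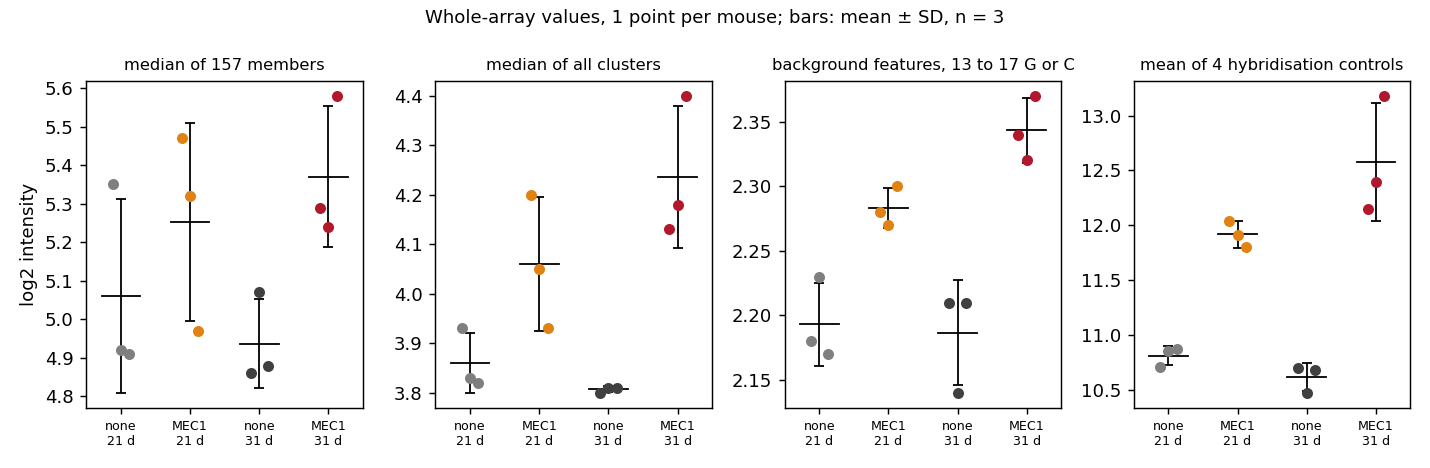
Log2 intensity (vertical axes) of 4 whole-array measures in the 4 groups, 1 point per mouse, with bars for mean ± SD (n = 3). The median of the 157 members moved by 0.19 at 21 d and 0.43 at 31 d, close to the 0.20 and 0.43 of all clusters, while the hybridisation controls moved by 1.11 and 1.96.

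At 21 d few precursors passed the test between mice with and without MEC1, although this count depended on how arrays were weighted. Mir6987, Mir6916 and Mir7058 rose, which is 3 of 134 tested members where 1.83% of all 37240 tested clusters rose. Mir7067 and Mir7068 fell, which is 2 of 134 where 2.51% of all clusters fell. Both shares, 2.24% and 1.49%, were near those of all clusters. With array weights 48 members rose (35.8%, against 22.7% of all clusters) and 14 fell (10.4%, against 20.1%). With the hybridisation controls described above as a covariate 0 rose and 0 fell by limma, where 0.0107% of all clusters rose and 0 fell. In a bulk fraction such as this one, fewer cells of a type and less RNA per cell cannot be told apart. "Rose" and "fell" are used only for an adjusted p under 0.05 from limma, two-sided, adjusted by Benjamini-Hochberg over the 37240 clusters. Before adjustment, 35 members had p under 0.05. The share of all clusters at that limit is not given here, so this count is no result about the members. The difference of group means was above 0 in 91 of 157 members (57.96%, against 67.74% of all clusters) and ranged from -2.25 to 1.5 with a median of 0.10, against 0.13 for all clusters. In 26 members all 3 MEC1 mice lay above all 3 controls (16.6%, against 21.0% of all clusters), and in 17 all lay below (10.8%, against 7.93%). With the shift of clusters of the same control level removed before the fit, 3 rose and 3 fell, where 2.03% and 2.0% of all clusters did.

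Mir6987 had the clearest early rise. It read 3.81, 3.52 and 3.51 in the 3 controls and 5.38, 5.15 and 4.80 in the 3 MEC1 mice at 21 d, a log2 change of 1.5 (SE 0.200, adjusted p = 0.00510, limma, n = 3). The lowest MEC1 mouse lay almost 1 log2 unit above the highest control. The rise passed whichever of the 12 arrays was left out.

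Mir7058, which lies inside the T cell adaptor gene Lat, read 6.37, 5.80 and 5.57 without and 7.10, 7.12 and 6.61 with MEC1 at 21 d (change 1.03, SE 0.235, adjusted p = 0.0381, limma). The groups did not overlap. It was called in 4 of the 12 fits that leave out 1 array. Mir6916, inside the lipid transfer gene Esyt1, read 6.28, 5.43 and 5.56 without and 7.11, 7.16 and 6.47 with MEC1 (change 1.16, SE 0.263, adjusted p = 0.0380, limma), again without overlap, and was called in 6 of the 12.

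The early falls were those of Mir7067 and Mir7068. Mir7067 read 8.20, 8.27 and 8.38 in controls and 7.03, 7.39 and 7.06 with MEC1 at 21 d (change -1.12, SE 0.232, adjusted p = 0.0291, limma). Its controls lay close together and well above every MEC1 mouse. Mir7068, inside the splicing-related gene Cherp, read 6.51, 5.82 and 6.02 in controls and 4.76, 5.39 and 5.05 with MEC1 (change -1.05, SE 0.242, adjusted p = 0.0396, limma), with no overlap. Mir7067 was called in 7 and Mir7068 in 3 of the 12 fits without 1 array. Mir6916, Mir7058, Mir7067 and Mir7068 all lost their call at 21 d when control 21 d replicate 2 or 3 or MEC1 21 d replicate 1 or 2 was left out.

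Other members with the smallest p-values at 21 d did not pass. Mir6995, Mir6947 and Mir6909 differed by 1.34, 0.88 and 0.88 with adjusted p of 0.0698, 0.0830 and 0.0840 (limma). Mir7060, Mir6979, Mir6933 and Mir6900 differed by -0.79, -2.25, -2.12 and -1.02 with adjusted p of 0.0771, 0.0806, 0.110 and 0.113. The large differences of Mir6979 and Mir6933 came with widely spread controls. Mir6979 read 11.67, 9.64 and 9.58 in controls and 8.31, 8.11 and 7.71 with MEC1, and Mir6933 read 10.16, 6.83 and 8.08 against 5.72, 6.48 and 6.52, control replicate 1 being the highest in both. The early counts rest on single arrays. Without MEC1 21 d replicate 3, 13 members rose (9.7%, against 3.47% of all clusters) and 1 fell (0.746% against 4.27%). Without control 21 d replicate 1, 5 rose (3.73% against 1.12%) and 0 fell (against 1.68%). Without control 21 d replicate 2 or 3, or MEC1 21 d replicate 1 or 2, 1 rose and 0 fell. In those 4 fits 0.328% to 0.411% of all clusters rose and 0.475% to 0.824% fell. Without control 31 d replicate 3 or MEC1 31 d replicate 2, 1 rose (0.746%, against 0.757% and 1.3%) and 1 fell (0.746%, against 1.29% and 1.75%). Without control 31 d replicate 1, 2 rose (1.49% against 1.26%) and 1 fell (0.746% against 1.96%).

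At 31 d rises outnumbered falls on the deposited scale, though not once each array was centred on its median (16 rises, 23 falls). In MEC1 mice 44 of 134 tested precursors rose (32.8%, where 22.6% of all tested clusters rose) and 6 fell (4.48%, where 21.1% of all fell), while 84 did not pass. The rises ran from 0.56 to 2.37 log2 units with a median of 1.04, and 24 of them were at least 2-fold. The falls ran from -0.92 to -2.19 with a median of -1.13, and 5 were at least 2-fold. The 44 included Mir6987 and Mir7058 and the 6 included Mir7067 and Mir7068, which had passed at 21 d in the same direction. Of the 44, 40 had a difference above 0 at 21 d as well, where 67.74% of all clusters did, whatever their change at 31 d. The share among all clusters that rose at 31 d is not given here, so this count is no result about the members. Both days compare separate mice, but array medians were higher with MEC1 on both days. Before adjustment, 58 members had p under 0.05. The share of all clusters at that limit is not given here, so this count is no result about the members.

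Over all 157 members the difference at 31 d ranged from -2.19 to 2.37 with a median of 0.39, against 0.30 over all clusters, and was above 0 in 114 (72.61%, against 71.18% of all clusters). The 23 members too dim to test had differences from -0.18 to 1.2 with a median of 0.37. In 66 members all 3 MEC1 mice lay above all 3 controls (42.0%, against 45.3% of all clusters), and in 9 all lay below (5.7%, against 16.2%). Among the precursors that passed, 42 of the 44 rises and 5 of the 6 falls had groups that did not overlap. They were picked by a test on these same values, so this adds no separate support.

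The members' medians departed from those of other clusters at moderate levels. The difference between MEC1 and control arrays depended on the control level: over all clusters its median was 0.42 at a control level up to 4, 0.26 from 4 to 5, -0.19 from 5 to 6, -0.47 from 6 to 7, -0.77 from 7 to 8 and -0.93 above 8. The members' medians in the same bins were 0.39 (35 members), 0.57 (49), 0.41 (37), 0.21 (21), 0.38 (11) and -0.59 (4). The dimmest members thus moved with clusters of their level, while those from 4 to 8 lay above them. At 31 d 113 of 157 members lay above the median shift of clusters in the same bin of 0.5 log2 units, and the median distance from it was 0.34. At 21 d the corresponding values were 85 members and 0.03. All 6 falls lay below the shift of their level. At levels up to 8 this follows from their size: the smallest fall was -0.92, and the medians given above were not below -0.77. Above 8 there was 1 fall, Mir7067, the largest at -2.19. All 44 rises lay above the shift of their level, which follows from their size: the smallest was 0.56, and the median shifts given above did not exceed 0.42.

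**Figure D2:**
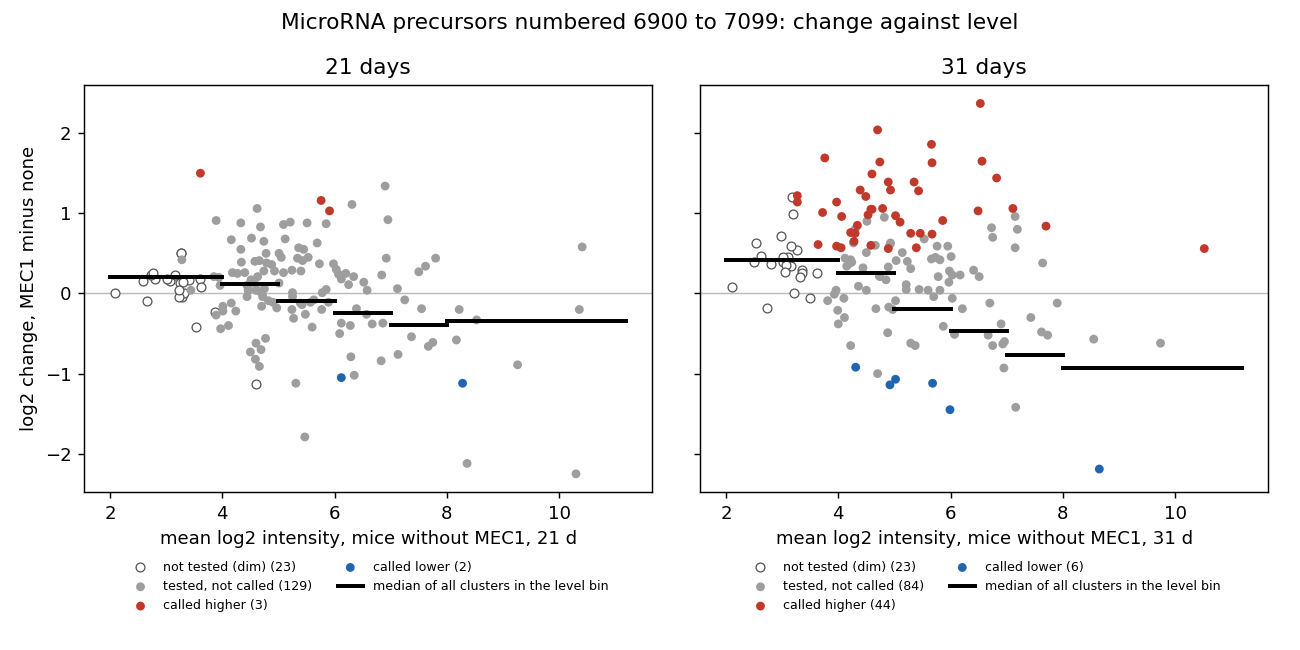
Difference between MEC1 and control group means (vertical axis, log2 units) against the control mean log2 intensity (horizontal axis) for the 157 precursors at 21 d and 31 d, 1 point per precursor; black lines are the medians of all clusters in each range of level. At 31 d the lines descend from 0.42 to -0.93, so that the 44 rises, of 0.56 or more, lie above them at any level. The 6 falls, from -0.92 to -2.19, lie below the lines of their levels.

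The counts depended on the scale. When the shift of each level was removed before the fit, 41 members rose (30.6%, where 14.8% of all clusters rose) and 10 fell (7.46%, where 13.2% fell) at 31 d, and 33 of the rises and 6 of the falls were among those above. With quantile normalization 40 rose (29.9% against 13.5%) and 11 fell (8.21% against 15.1%). With each array centred on its own median, which takes off the 0.43 shift of the arrays, 16 rose (11.9% against 7.48%) and 23 fell (17.2% against 36.9%). Without a filter on dim clusters the share of members that rose, 33.8%, was near that of all clusters, 33.0%. Without MEC1 31 d replicate 3, which was the highest MEC1 mouse in 31 of the 44 rises, 23 rose (17.2% against 14.7%) and 2 fell (1.49% against 14.4%). Without control 31 d replicate 2, 28 rose (20.9% against 14.4%) and 2 fell (1.49% against 14.2%). Without control 31 d replicate 3, 30 rose (22.4% against 15.4%) and 3 fell (2.24% against 16.1%). When the level of the hybridisation controls entered the model as a covariate, 0 members passed by limma, while 0.0188% of all clusters rose and 0 fell.

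The largest late rise was that of Mir6995. It read 6.40, 6.48 and 6.72 in the 3 controls and 8.47, 8.71 and 9.53 in the 3 MEC1 mice at 31 d, a log2 change of 2.37 or 5.17-fold (SE 0.377, adjusted p = 0.00133, limma, n = 3). The groups were far apart, and clusters of its level moved by -0.57. At 21 d its MEC1 mice, at 8.80, 8.20 and 7.73, also lay above its controls, at 7.65, 6.66 and 6.40.

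Mir6965, inside the cyclin F gene Ccnf, read 4.99, 4.34 and 4.78 in controls and 6.62, 6.56 and 7.04 with MEC1 (change 2.04, SE 0.344, adjusted p = 0.00173, limma). Mir6946, inside Sec24c of the COPII vesicle coat, read 5.91, 5.41 and 5.65 in controls and 7.28, 7.23 and 8.04 with MEC1 (change 1.86, SE 0.340, adjusted p = 0.00252). In both the lowest MEC1 mouse was more than 1 log2 unit above the highest control. Mir6987 read 3.62, 3.88 and 3.77 in controls and 5.09, 5.58 and 5.66 with MEC1 (change 1.69, SE 0.200, adjusted p = 0.000476, limma), nearly the levels it had at 21 d.

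The next members, in order of size, also had groups without overlap. Mir6934 read 6.85, 6.10 and 6.72 in controls and 8.62, 7.85 and 8.14 with MEC1 (change 1.65, adjusted p = 0.0104, limma); it lies inside Tbc1d16, a gene for a Rab GTPase-activating protein. Mir7006, inside the zinc finger gene Zfp512b, read 4.52, 5.19 and 4.51 against 7.01, 5.62 and 6.51 (change 1.64, adjusted p = 0.00788), with MEC1 replicate 2 only slightly above the highest control. Mir7031, inside Sh2b3, which encodes an adaptor that restrains cytokine signalling, read 5.61, 5.33 and 6.08 against 7.16, 6.85 and 7.91 (change 1.63, adjusted p = 0.00906). Mir7031 had not differed clearly at 21 d, where its change was 0.37 (adjusted p = 0.582) and its groups overlapped.

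Mir6957, inside the adaptor gene Grap2, read 5.10, 4.01 and 4.70 in controls and 6.15, 5.64 and 6.48 with MEC1 (change 1.49, adjusted p = 0.00307, limma). Mir6930, inside the mitochondrial carrier gene Slc25a39, read 7.27, 6.35 and 6.84 against 8.57, 7.84 and 8.37 (change 1.44, adjusted p = 0.0201). Mir6930 was the 1 named rise at 31 d that did not pass every fit without 1 array: it was called in 8 of 12, and failed without control 31 d replicate 2 or 3 or MEC1 31 d replicate 1 or 3. Mir6909, inside the lipid phosphatase gene Plpp2, read 5.56, 5.20 and 5.29 against 6.71, 6.33 and 7.17 (change 1.39, adjusted p = 0.00299). Mir7002, inside Aqr, which encodes an intron-binding helicase of the spliceosome, read 4.92, 4.80 and 4.96 against 6.18, 6.01 and 6.67 (change 1.39, adjusted p = 0.00175). Controls of Mir7002 lay close together. Mir6964, inside C2cd2, read 4.58, 5.07 and 5.14 against 6.25, 5.50 and 6.92 (change 1.29, adjusted p = 0.00850), its MEC1 mice widely spread. The other 32 rises were between 0.56 and 1.29.

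Among the falls at 31 d, Mir7067 and Mir7068 stood out. Mir7067 read 8.24, 9.15 and 8.56 in controls and 6.60, 6.64 and 6.13 with MEC1, a log2 change of -2.19 (SE 0.232, adjusted p = 0.000309, limma, n = 3), where clusters of its level moved by -0.89. Mir7068 read 5.82, 6.41 and 5.74 in controls and 4.44, 4.71 and 4.48 with MEC1 (change -1.45, SE 0.242, adjusted p = 0.00166). In both every MEC1 mouse lay more than 1 log2 unit below every control, and both passed whichever array was left out.

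The other 4 falls were nearer the threshold. Mir7027, inside the ubiquitin ligase gene Ube3b, read 3.90, 5.47 and 5.39 in controls and 3.57, 3.87 and 3.89 with MEC1 (change -1.14, adjusted p = 0.0423, limma), so that control replicate 1 lay at the level of the MEC1 mice. Mir7033, inside the nuclear pore gene Pom121, read 5.44, 5.81 and 5.80 against 4.26, 4.93 and 4.49 (change -1.12, adjusted p = 0.0389), without overlap. Mir6928, inside the proton pump gene Atp6v0a1, read 5.96, 4.94 and 4.16 against 3.81, 4.20 and 3.85 (change -1.07, adjusted p = 0.0474), and its groups overlapped. Mir7077, inside Cmip, read 3.75, 4.63 and 4.55 against 3.57, 3.24 and 3.36 (change -0.92, adjusted p = 0.0284), without overlap. With 1 array left out these 4 were called in 5, 7, 2 and 8 of 12 fits. All 4 lost their call without control 31 d replicate 2 and without MEC1 31 d replicate 3. Mir7027, Mir7033 and Mir7077 lost it without control 31 d replicate 3 too, Mir7033 and Mir6928 without control 31 d replicate 1, and the remaining losses came with MEC1 31 d replicate 1 or 2 or arrays of 21 d left out. Mir7078, which lies in Cmip too, changed by -0.38 (adjusted p = 0.430).

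**Figure D3:**
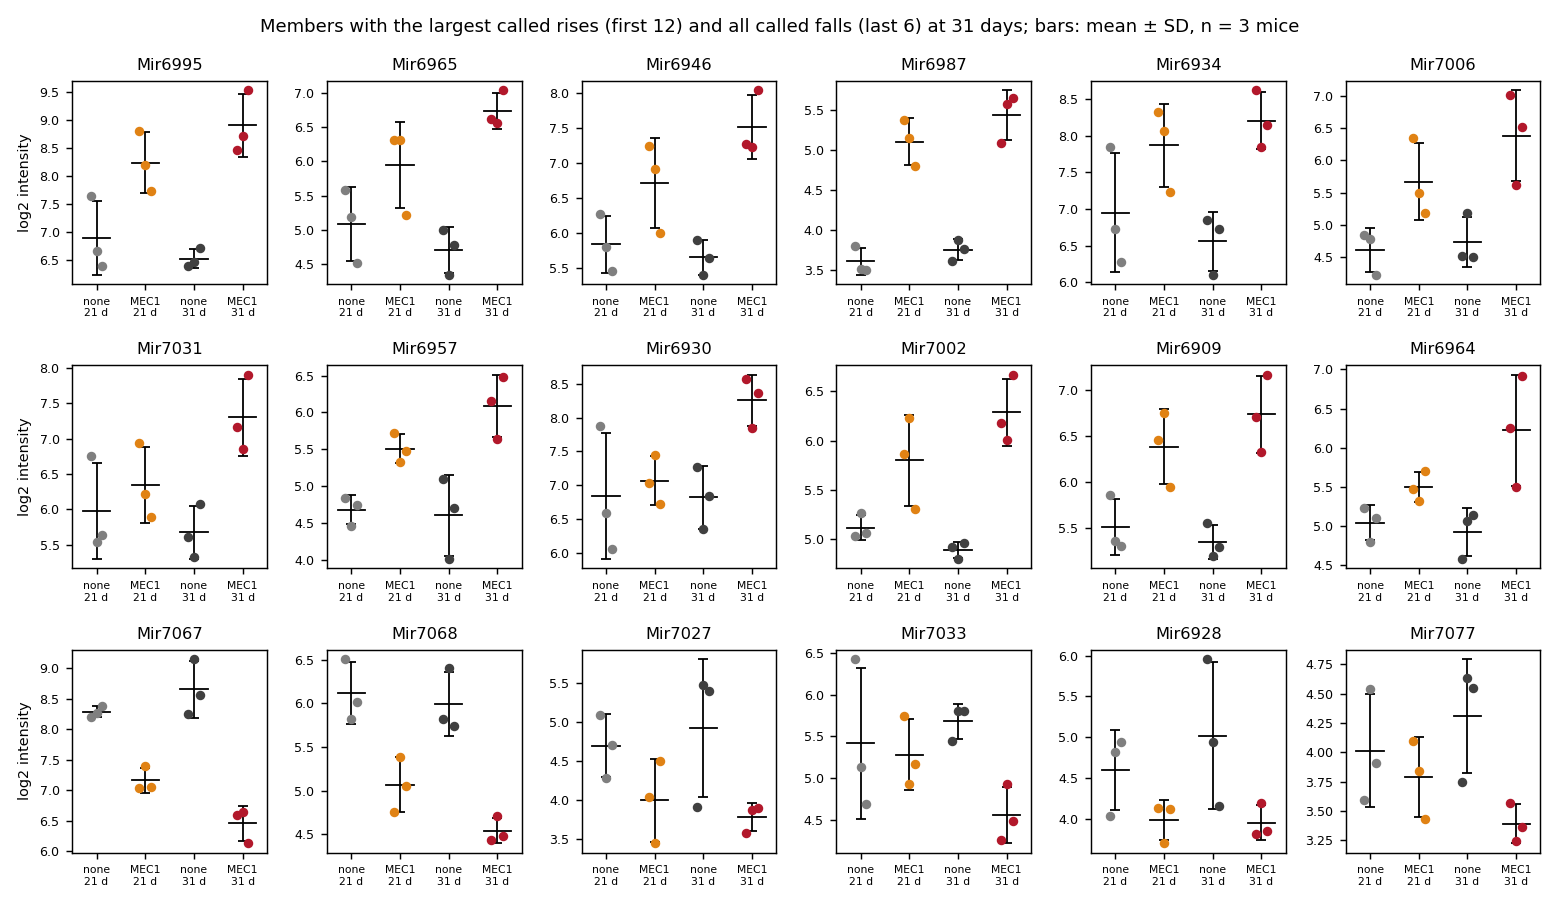
Log2 intensity (vertical axes) of the 12 precursors with the largest rises and the 6 that fell at 31 d, in mice without and with MEC1 at 21 d and 31 d, 1 point per mouse, with bars for mean ± SD (n = 3). In Mir6987 the MEC1 mice of both days lie above all controls, and in Mir7067 and Mir7068 below them; Mir6928 has overlapping groups at 31 d.

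Of the 16 seeds shared by members, 4 had at least 2 members that passed at 31 d. In 3 of these both members rose, and in the other 1 rose and 1 fell. Another 6 seeds had 1 member that passed, and 6 had none. At 31 d 32.8% of all tested members rose and 4.48% fell, where 22.6% and 21.1% of all tested clusters did. Seeds with 2 rising members can occur at such shares without any link to the seed, so these counts are no result about the seeds. Mir6965 and Mir7047, whose 5p arms share the seed GAGGGAG, both rose at 31 d, by 2.04 and 0.76 (adjusted p = 0.00173 and 0.0233, limma):
miR-6965-5p: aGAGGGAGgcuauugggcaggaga
miR-7047-5p: uGAGGGAGgagggcugggucuga
The seed CACCCUG is common to the 3p arms of Mir7068, Mir7023 and Mir7018:
miR-7068-3p: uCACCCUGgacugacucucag
miR-7023-3p: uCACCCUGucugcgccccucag
miR-7018-3p: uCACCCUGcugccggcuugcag
Mir7068 fell, Mir7023 differed by 0.38 (adjusted p = 0.288, limma), and Mir7018, too dim to test, differed by 0.63. Of the 3 members with the seed GGGGAGG, Mir7076 rose by 0.74 (adjusted p = 0.0117), and Mir7030 and Mir7075 differed by 0.31 and 0.23 (adjusted p = 0.507 and 0.257). Mir6926 and Mir7055, with CAGUGGG, rose by 0.75 and 1.05 (adjusted p = 0.0194 and 0.00883), and Mir6975 and Mir7005, with CUGGGGA, by 1.28 and 0.84 (adjusted p = 0.0170 and 0.0267). Mir7077 fell while Mir7048, which shares its seed CUUCCAU, rose by 0.89 (adjusted p = 0.0211).

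The mirtron-like 3p end was found among rises and falls alike. At 31 d 34 of the 98 tested members with a 3p arm ending in AG rose and 6 fell, with a median difference of 0.42 over all 112. Of 22 tested members without that end, 8 rose and 0 fell, with a median of 0.30 over all 28. Among all tested members 32.8% rose and 4.48% fell, and among all tested clusters 22.6% and 21.1%. These sets were not compared by a test. Across 140 members the Pearson correlation of hairpin GC content with the change was -0.16 at 31 d and -0.01 at 21 d, and with the mean level -0.03, as a description over members that share the same arrays.

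Host genes, where they could be compared, mostly fell at 31 d. For 118 members on the same strand as their gene, that gene had a cluster of its own, for 117 different genes, and the other members have no host value here. At 31 d 64 of these 118 host clusters fell, where 21.1% of all tested clusters fell, and 2 rose, Nipsnap1 and Mllt6, where 22.6% of all rose, while 33 of their members rose and 5 fell. The median difference was -0.77 for hosts and 0.39 for members, and in 109 pairs the member's difference lay above its host's. Hosts were brighter, with a median control level of 7.53 against 4.97. Relative to clusters of the same level the medians were -0.15 for hosts and 0.33 for members, and the member lay above its host in 90 of 118 pairs. At 21 d 5 hosts fell and 0 rose by limma, the medians were -0.28 and 0.04, and relative to their levels -0.05 and 0.01.

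No member rose together with its host, but only 2 of the 118 hosts rose at all and 64 fell. Joint rises could therefore hardly occur, and falling hosts were common. Of the 33 rising members, 14 lay in a host that fell and 19 in one that did not pass or was not tested. Sec24c fell by 1.32 (SE 0.198, adjusted p = 0.00104, limma) around Mir6946, Pcnx3 by 1.35 (SE 0.172, adjusted p = 0.000559) around Mir6987, and Aqr by 1.74 (SE 0.270, adjusted p = 0.00120) around Mir7002. C2cd2 fell by 1.58 (adjusted p = 0.00340) around Mir6964. Sh2b3, Grap2 and Plpp2 fell by 0.82, 0.64 and 0.54 (adjusted p = 0.0110, 0.0195 and 0.0434), and Zfp512b and Slc25a39 differed by -0.26 and -0.55 without passing (0.118 and 0.0575). All 5 falling members with a host cluster lay in hosts that fell: Cherp by 1.51, Ube3b by 1.41, Pom121 by 2.11, Atp6v0a1 by 1.04 and Cmip by 1.62 (adjusted p from 0.000909 to 0.0169). The median host difference was -0.33 where the member rose and -1.51 where it fell. Over the 118 pairs, Pearson's r between the differences of member and host was 0.31 at 31 d and 0.11 at 21 d, a description over pairs read on the same arrays.

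**Figure D4:**
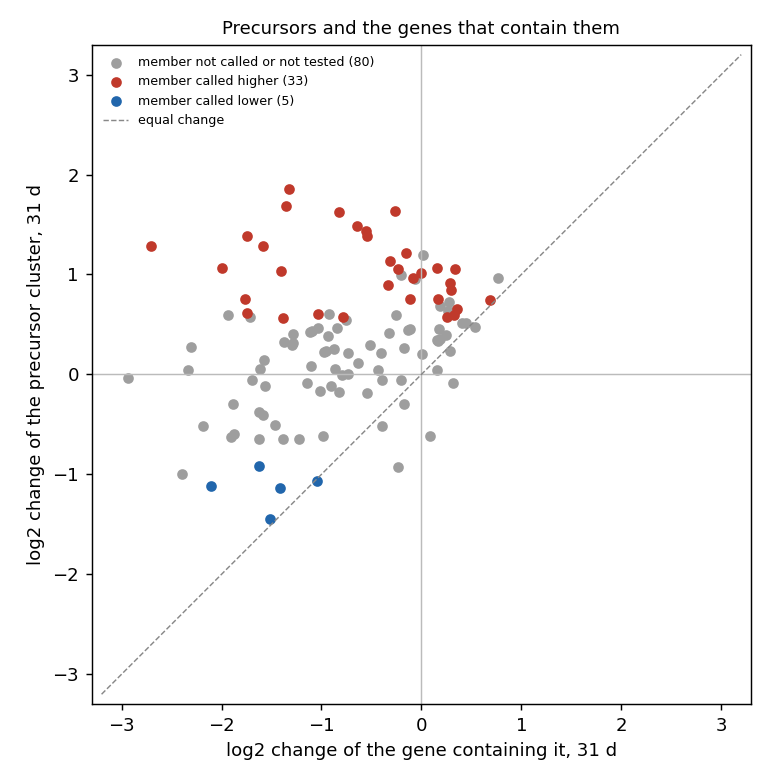
Log2 difference between MEC1 and control mice at 31 d for 118 precursors (vertical axis) against that of the gene containing each on the same strand (horizontal axis), 1 point per pair; the dashed line marks equal change. Points lie above the line in 109 pairs, the 14 pairs with a rising member and a falling host are at the upper left, and the 5 falling members lie at the lower left.

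Many genes that make and carry microRNAs were lower at 31 d, as were clusters of their levels in general. Of 24 listed processing genes 21 had a cluster of their own, and all were tested. Here 11 fell, where 21.1% of all tested clusters fell, and 1 rose, where 22.6% of all rose. The other 9 did not pass, and the median was -0.58. Ago2, the Argonaute that slices its targets, fell from 12.09 to 9.27 (change -2.82, SE 0.377, adjusted p = 0.000618, limma). Tut7, which adds uridines to hairpins and mature arms, fell by 2.72 (SE 0.306, adjusted p = 0.000368), and the exporter Xpo5 by 1.87 (SE 0.387, adjusted p = 0.00445). These genes are bright, and clusters of their levels moved by -1.03, -1.09 and -0.98.

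Enzymes of both maturation routes were on the list. Drosha, which mirtrons do not need, fell by 1.36 and Dicer1, which they do, by 1.65 (adjusted p = 0.00237 and 0.000559, limma). Clusters of their levels moved by -0.98 and -1.0. The lariat debranching enzyme Dbr1 differed by -0.47 (adjusted p = 0.235), where clusters of its level moved by -0.7. The 1 gene that rose was U2af1, which recognises the splice acceptor AG, by 1.93 (SE 0.333, adjusted p = 0.00190); it had risen by 1.91 at 21 d (adjusted p = 0.0153). At 21 d Tut7 and Tut4 fell by 1.47 and 0.76 (adjusted p = 0.0294 and 0.0444). With the shift of each level removed before the fit, 4 of the 21 rose and 5 fell at 31 d, and with the hybridisation-control covariate 0 passed by limma.

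Other microRNA precursors rose at 31 d as well. Of 168 tested precursors numbered under 500, 67 rose (39.88%, against 22.6% of all tested clusters) and 4 fell (against 21.1%), with a median difference of 0.46 over 295. Of 290 tested others numbered 500 and above, 87 rose (30.0%) and 17 fell, with a median of 0.38 over 453. Relative to clusters of the same level the medians over all precursors of each set were 0.12 and 0.10, against 0.34 for the members. The sets differ in how many precursors were bright enough to test: 168 of 295 and 290 of 453, against 134 of 157 members. The dimmest members moved with clusters of their level, so these medians do not compare like with like. The difference between the sets was not tested.

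The change from early to late disease was not established for any single member. The late minus early difference ranged from -1.79 to 1.93 and 0 members passed by limma (0.00269% of all clusters did), with 16 at an unadjusted p under 0.05 and a lowest adjusted p of 0.253. Mir6916 gave the lowest value: at 31 d it read 7.24, 6.66 and 6.89 in controls and 6.34, 6.13 and 6.43 with MEC1, a change of -0.63 (adjusted p = 0.0722), against its rise of 1.16 at 21 d. Its control mean was 5.76 at 21 d and 6.93 at 31 d. Between controls of 31 d and 21 d, 0 members passed by limma (0.00806% of all clusters did), with 12 at an unadjusted p under 0.05, a lowest adjusted p of 0.208 and differences from -2.68 to 1.17. For the unadjusted counts of both comparisons the share of all clusters is not given here.

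Of the 6 members with the highest mean over all arrays, Mir6971 and Mir7005 rose at 31 d. Mir6971, inside Skiv2l, a gene of an RNA helicase that feeds the exosome, read 10.76, 10.50 and 10.31 in controls and 10.98, 11.00 and 11.26 with MEC1 (change 0.56, adjusted p = 0.0390, limma), where clusters of its level moved by -1.05. Mir7005, inside the laminin gene Lama5, read 7.70, 7.60 and 7.80 against 7.99, 8.50 and 9.14 (change 0.84, adjusted p = 0.0267). Neither pair of groups overlapped. Mir6994, Mir6989, Mir6979 and Mir7062 did not pass, with differences of -0.62, -0.57, -0.48 and 0.96 and overlapping groups. Mir6979, Mir6933 and Mir7062 had their highest readings in controls of 21 d, at 11.67, 10.16 and 9.54.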

How the data were processed

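Total RNA of 12 mice was read on 12 arrays. The deposited values were log2 intensities per transcript cluster, made by the authors with Affymetrix Expression Console and RMA per the submitters' processing notes; versions and genome build are not given in the sources used here. Control features were left out. Symbols came from the platform table, updated through RefSeq. The precursors and gene lists were chosen with earlier results of these data known.

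limma 3.58.1 (R 4.3.3) estimated 4 group means for the 37240 clusters that exceeded their array's median on 3 or more arrays, with Benjamini-Hochberg adjustment over all of them and a threshold of 0.05. The fit was tested on simulated data. The shift of a level is the median difference of all clusters within 0.5 log2 units of control mean, in bins of at least 50. Named members were up to 12 rises and 12 falls that passed on each day, filled to 6 by smallest p, and the 6 brightest. Host genes were those whose span held the precursor on the same strand. For Mir6995, Mir6934 and Mir6971 the strand of the gene named as containing them was not compared. The number of arrays limits the precision.

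Alternatives were other filters (none, 70th percentile), scalings, weights, moderation, a 1.5-fold minimum, the hybridisation controls as covariate, the replicate number as a block, and leaving out each array. Mice are separate animals per the labels, and replicate numbers do not pair them.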

Additional observations from a re-analysis of the deposited data

Results flagged for a closer look

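Mir6916 was the 1 precursor whose groups were separated without overlap in opposite directions at 21 d and 31 d; other members had differences of opposite sign with overlapping groups on at least 1 day. All 3 MEC1 mice lay above all 3 controls at 21 d and below all 3 at 31 d. The late minus early difference was -1.79 log2 units (adjusted p = 0.253, limma over all tested clusters), so the test of the difference itself did not pass.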

How the results depend on the processing

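Median differences of the members (0.10 and 0.39) and their medians beyond the shift of the level (0.03 and 0.34) moved by less than 1 SD of the member median under every alternative run, except that centring arrays on their median turned 0.39 into -0.04; it also took 0.10 to -0.10. The counts moved more, and the shares of all clusters that passed changed with the settings too. At 21 d, 3 rises and 2 falls became 48 and 14 with array weights and 0 and 0 with the hybridisation-control covariate. Without moderation they became 1 and 0 (0.746% and 0.0%, against 0.773% and 1.04% of all clusters). With the 6 arrays of the day alone they became 1 and 1 (0.746% each, against 0.438% and 0.781%). Falls at 21 d were 5 after centring on the median (3.73%, against 3.92% of all clusters) and 0 with quantile normalization (against 1.23%). Leaving out 1 array gave 1 to 13 rises and 0 to 2 falls at 21 d, and 23 to 46 rises and 2 to 7 falls at 31 d. In these fits 0.328% to 3.47% of all clusters rose and 0.475% to 4.27% fell at 21 d. At 31 d 14.4% to 23.7% of all clusters rose and 14.2% to 22.3% fell. At 31 d, 44 rises and 6 falls became 16 and 23 after centring on the median and 0 and 0 with the covariate. Falls at 31 d were 10 after level-matched centring (7.46%, against 13.2% of all clusters) and 11 with quantile normalization (8.21% against 15.1%). Without moderation they were 2 (1.49% against 18.6%). Array weights gave 4 late minus early calls and 2 between controls, where every other fit run gave 0. Of the processing genes, 1 rise and 2 falls at 21 d became 3 and 8 with array weights, 0 and 0 with the covariate, and 0 to 1 and 0 to 5 without 1 array; falls were 1 with quantile normalization, no filter, trend and robust moderation, or the 6 arrays of the day, and 0 without moderation or with the replicate block. At 31 d, 1 rise and 11 falls became 4 and 5 after level-matched centring and 0 and 0 with the covariate, and rises were 4 with quantile normalization. With the replicate number as a block, 3 rose (2.24%, against 0.838% of all clusters) and 1 fell (0.746% against 1.39%) at 21 d. At 31 d 38 rose (28.4% against 19.7%) and 3 fell (2.24% against 19.2%) in that fit. The correlations of same-numbered mice, from -0.169 to 0.415, do not show pairing. With the covariate Mir7031 and Mir6964 turned to -0.13 and -0.07 (adjusted p = 0.982 and 0.987, limma) and 0 of 18 named calls at 31 d passed. Each member had 1 cluster, so choosing among clusters changed nothing. The cause of these shifts was not tested. Dim signal limits the 23 untested members.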
